A study of Rattus norvegicus with 6 samples.

Results

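TRiC, also called CCT, is the ATP-driven chaperonin of the cytosol, and its expression was examined here in the jejunum of rats given heat-and-shake stress. The 8 subunit genes Tcp1, Cct2, Cct3, Cct4, Cct5, Cct6a, Cct7 and Cct8 were taken, with every array probe whose RefSeq accession belonged to one of them. This gave 13 probes out of 41012 on the array, of which 17512 probes could be named, for 13837 genes. The complex was chosen by the measured difference of Cct6a, which lay among the largest between the groups on these arrays, so the differences below describe these arrays and carry no test for the subunits. Male Sprague-Dawley rats of 6 weeks and 200 ± 20 g formed a control group, kept at 25°C, and an S3d group, placed at 35°C under a vibration of 0.1 g for 2 h a day over 3 days. The sample labels give 10 rats to each group, where the study's methods state fewer, and 3 arrays were run per group, each on total RNA pooled from 3 rats. The RNA came from pieces of whole jejunum, in which fewer cells of a type and less RNA per cell cannot be told apart. No allele or drug differed between the groups. Nothing stated whether the pools of a group shared rats, so standard errors measure only the spread between these samples, which may be partly technical.

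TRiC is built from back-to-back rings in which each of the 8 related subunits has a fixed place. The rings enclose a chamber, and a lid formed by the subunits themselves closes over the client when ATP is hydrolysed. Actin and tubulin are its best known clients, together with proteins that carry WD-repeat propellers, and prefoldin delivers unfolded chains to it. In the absorptive cells of the intestine, actin forms the core of the microvilli and the terminal web beneath them. Heat shock factor 1, encoded by Hsf1, is known to bind TRiC and to drive genes of the chaperone network under heat.

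Several facts of the 6 arrays come before the values. The group labels of the scanner files and of the deposited normalized table were exchanged: each table column followed the same-numbered scanner file of the other group, with a rank correlation of 1.00, against 0.942 to 0.953 for the file carrying its own label. No sample was moved here, and groups follow the labels of the scanner files. The directions below oppose those of the study, whose arrays and real-time PCR both run as the table's labels do. Of the genes also measured by real-time PCR there, Lcn2 differed by -2.69, Atf6 by -2.01, Zbtb16 by -2.10 and -1.88, Atf4 by -1.26, Dap by -0.90, Casp12 by -0.78 and Mtor by 1.24 by the scanner labels. By the table's labels these were 2.75, 1.92, 2.72 and 2.15, 0.74, 0.88, 0.82 and -1.17. Casp8 and Casp9 likewise lay below 0 by the scanner labels and above 0 in the table, while the 2 probes of Herpud1 lay on both sides of 0 by the scanner labels, at -0.32 and 0.29. Where the table's labels are the right ones, higher and lower exchange places in every scanner value below, and sizes and errors stay as they are. The arrays labelled control lay on slide 1 and those labelled S3d on slide 2, scanned 450 days apart, so the stress and the slide with its scan cannot be told apart. The arrays labelled S3d were brighter, with a 75th percentile of processed signal of 1456 to 1566, against 414 to 430. No spot was saturated. Array S3d 1 stood apart for genes of pancreatic acinar cells, a neighbouring tissue, so values without it are given where they matter.

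Because heat acts on many chaperone genes through heat shock elements, the promoters of the subunits were searched for pairs of the inverted unit of that element, on the strand of the gene. Both motifs, TTCNNGAA and GAANNTTC, read the same on both strands and can overlap each other. RefSeq promoters of the GRCr8 build held 250 bases before the start and 50 from it, and all 8 subunits matched an entry. A pair was present in the promoters of 3 of 8 subunits and in 15.9% of all 33469 promoters. These 3 are printed 5′ to 3′ on the strand of the gene, with the matched letters in capitals, because they are the subunit promoters with a match.
Cct4 promoter: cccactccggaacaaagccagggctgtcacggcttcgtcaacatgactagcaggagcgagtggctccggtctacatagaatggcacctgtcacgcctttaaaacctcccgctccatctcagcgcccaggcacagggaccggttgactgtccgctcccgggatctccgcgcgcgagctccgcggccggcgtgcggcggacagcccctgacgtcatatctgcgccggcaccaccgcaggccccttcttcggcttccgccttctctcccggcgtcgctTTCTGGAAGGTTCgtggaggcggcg
Cct5 promoter: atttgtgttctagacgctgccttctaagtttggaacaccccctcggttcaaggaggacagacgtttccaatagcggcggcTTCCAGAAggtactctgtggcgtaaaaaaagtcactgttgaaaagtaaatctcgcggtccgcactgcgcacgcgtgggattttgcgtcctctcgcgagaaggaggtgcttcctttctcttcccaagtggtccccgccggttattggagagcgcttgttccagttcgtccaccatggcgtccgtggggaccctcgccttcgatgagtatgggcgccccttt
Cct6a promoter: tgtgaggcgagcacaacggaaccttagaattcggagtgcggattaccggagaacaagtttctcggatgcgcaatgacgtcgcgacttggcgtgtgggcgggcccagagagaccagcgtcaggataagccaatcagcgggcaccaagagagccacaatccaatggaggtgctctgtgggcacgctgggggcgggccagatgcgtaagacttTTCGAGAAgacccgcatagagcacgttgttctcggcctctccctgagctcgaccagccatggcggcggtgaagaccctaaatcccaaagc

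The Cct4 window, chr14:101192807-101193106 on the plus strand, held both motifs as an overlapping run, beginning at position 26 after the start. That longer run, TTCNNGAA continued by NNTTC, occurred in 0.421% of all promoters and in no other subunit. The Cct5 window, chr2:84313724-84314023 on the minus strand, held a single pair 170 bases upstream of the start. The Cct6a window, chr12:32519023-32519322 on the minus strand, held a single pair 40 bases upstream. A match is a description of letters and shows no binding.

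All 13 probes were single spots well above background on all 6 arrays. Levels are log2 processed signals from which the 75th percentile of their array was subtracted, and differences are S3d minus control on that log2 scale, ± the standard error of the fit. A probe was called where the limma fit gave a Benjamini-Hochberg adjusted p under 0.05 and the fold change reached 1.5. By this rule 52.5% of the 31420 tested probes were called, 29.2% higher in S3d and 23.2% lower. Among the TRiC probes 6 were called higher, 2 lower and 5 were not called, which is 61.5% of them. The control and S3d values were separate, with no overlap, for 13 of 13 TRiC probes and for 78.9% of all tested probes. Since the same contrast chose the complex, nothing is read from these counts. Differences ran from -0.83 to 3.89, with 9 probes above 0 and 4 below, and a median of 0.48 beside 0.09 for all tested probes.

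**Figure D1:**
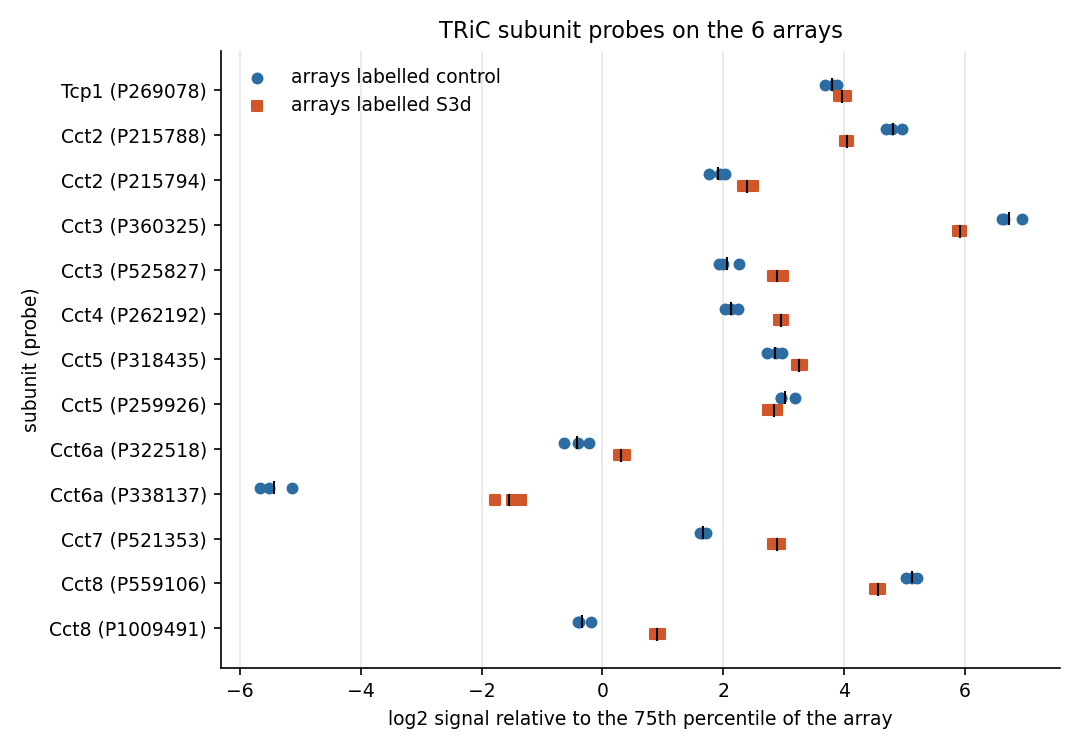
Each point is 1 array (circles, arrays labelled control; squares, arrays labelled S3d), short bars are group means, rows are the 13 probes and the horizontal axis is the log2 signal relative to the 75th percentile of the array. The dimmer Cct6a probe (P338137) shows the widest separation, at -5.67 to -5.13 against -1.78 to -1.35, while the brighter Cct2, Cct3 and Cct8 probes lie lower on the arrays labelled S3d.

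Tcp1, Cct2, Cct4 and Cct5 form the side of the ring that binds ATP with high affinity. Tcp1, the alpha subunit and founding member of the family, was covered by the single probe A_44_P269078. Its log2 level was 3.89, 3.82 and 3.69 on the control arrays and 3.94, 3.92 and 4.02 on the S3d arrays. The S3d values all lay above the control values, but by little, and the difference of 0.17 ± 0.08 was not called.

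Cct2, the beta subunit, which also has a described role as a receptor for the autophagy of protein aggregates, had 2 probes that opposed each other. Probe A_44_P215788 read 4.95, 4.79 and 4.68 in control and 4.04, 4.01 and 4.07 in S3d. All S3d arrays were lower, by -0.77 ± 0.08, and the probe was called. Probe A_44_P215794 read 2.03, 1.94 and 1.77 in control and 2.32, 2.37 and 2.49 in S3d. Here all S3d arrays were higher, by 0.48 ± 0.09, which stayed under the 1.5-fold limit.

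Cct4, the delta subunit, contacts actin during folding, and a mutation in it underlies a sensory neuropathy of the rat. Its single probe, A_44_P262192, read 2.24, 2.13 and 2.03 in control and 2.92, 2.94 and 2.99 in S3d. The S3d arrays lay clear of the control arrays and close together, with a difference of 0.82 ± 0.08 that was called. Cct5, the epsilon subunit, is the subunit altered in a human hereditary sensory neuropathy. Its probe A_44_P318435 read 2.97, 2.87 and 2.73 in control and 3.22, 3.23 and 3.30 in S3d, a difference of 0.40 ± 0.08. Its probe A_44_P259926 read 3.19, 2.95 and 2.95 in control and 2.87, 2.74 and 2.89 in S3d, a difference of -0.20 ± 0.09. Neither Cct5 probe was called, and their directions were opposite.

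Cct3, Cct6a, Cct7 and Cct8 form the side of the ring with low affinity for ATP. Cct3, the gamma subunit, gave the clearest contradiction, since both of its probes were called and in opposite directions. Probe A_44_P360325, the brightest of the 13, read 6.93, 6.65 and 6.61 in control and 5.93, 5.92 and 5.88 in S3d, a difference of -0.83 ± 0.10. Probe A_44_P525827 read 2.26, 1.99 and 1.92 in control and 2.83, 2.87 and 2.98 in S3d, a difference of 0.83 ± 0.11. The fit on the mean of the Cct3 probes gave 0.00.

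Cct6a, the zeta subunit, has a testis-specific paralogue, Cct6b. Its probe A_44_P338137 carried the difference for which the complex was picked. In processed signal it read 11.8, 9.36 and 8.44 on the control arrays and 423, 608 and 555 on the S3d arrays. In scaled log2 levels this was -5.13, -5.51 and -5.67 against -1.78, -1.35 and -1.50, with the groups far apart. The difference of 3.89 ± 0.18, or 14.9-fold, ranked 199th of 31420 in size. Leaving out array S3d 1 moved it to 4.01. Probe A_44_P322518 of the same gene read -0.40, -0.23 and -0.63 in control and 0.27, 0.37 and 0.30 in S3d. It was also higher in all S3d arrays, but by 0.73 ± 0.11, or 1.66-fold. The 2 Cct6a probes therefore shared a direction and differed in size by 3.16 on the log2 scale, the 49th largest gap among 2628 genes with at least 2 tested probes. RefSeq lists 14 pseudogenes of Cct6a in the rat, out of 26 for the 8 subunits together, and their share in either probe was not tested.

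Cct7, the eta subunit, had the largest difference among the brightest probes of each subunit. Its single probe, A_44_P521353, read 1.71, 1.65 and 1.62 in control and 2.90, 2.82 and 2.93 in S3d. The groups were tight and well separated, with a difference of 1.22 ± 0.06, or 2.34-fold. Cct7 was the one subunit called after normexp background correction too, at 1.45. Cct8, the theta subunit, again had opposing probes. Probe A_44_P559106 read 5.20, 5.12 and 5.02 in control and 4.60, 4.51 and 4.56 in S3d, a difference of -0.56 ± 0.07 that stayed just outside the limit at 1.47-fold and passed it at -0.61 without control replicate 3 and at -0.74 with median centring. Probe A_44_P1009491 read -0.20, -0.39 and -0.41 in control and 0.88, 0.86 and 0.95 in S3d, a called difference of 1.23 ± 0.08. The called probe nearest the limit was that of Cct6a at 1.66-fold.

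Taking the brightest probe of each subunit, Cct4, Cct6a and Cct7 were called higher, Cct2 and Cct3 were called lower, and Tcp1, Cct5 and Cct8 were not called. With median centring Cct6a lost its call, at 0.55, and Cct8 gained one. With quantile normalization Cct2 and Cct3 lost theirs and Cct5 gained one. The median over the 8 was 0.28. Without Cct6a, the gene that led to the choice, 2 of the other 7 were called higher and 2 lower, with a median of 0.17. Averaging all probes of a gene instead gave 3 called subunits, Cct4 at 0.82, Cct6a at 2.31 and Cct7 at 1.22, each higher. Leaving out array S3d 1, with its pancreatic signal, changed no call among the 13 probes, and Cct4 and Cct7 then stood at 0.83 and 1.21.

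Of the 5 subunits with 2 probes, 4 had probes of opposite sign, which is 80% of them beside 40.0% of all 2628 such genes. In 4 of the 5 the probe with the higher signal had the lower difference, beside 59.6% of all. The difference of the dimmer probe minus that of the brighter probe was 1.25 for Cct2, 1.66 for Cct3, -0.59 for Cct5, 3.16 for Cct6a and 1.79 for Cct8. This quantity is formed within each array and no scaling factor enters it. Its SD between arrays of a group was 0.04 in control and 0.07 in S3d for Cct2, and 0.06 in both groups for Cct8. The disagreement between probes of a subunit thus exceeded the spread between arrays. Both probes called in opposite directions, as for Cct3, occurred in 6.54% of all such genes. Opposite signs remained in 3 of the 5 subunits with quantile normalization, beside 39.8% of all genes, and in 2 with normexp, beside 33.7%. Under neither setting were both probes of a subunit called in opposite directions.

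Across the 13 probes the difference fell with the mean signal of the probe, with a Spearman rho of -0.87 and a Pearson r of -0.92. Without both Cct6a probes, over 11 probes, the values were -0.91 and -0.88. The points share the same 6 arrays and some share a gene, and the mean signal and the difference are formed from the same values. Over all 31420 tested probes rho was -0.34. In the brightest of 20 equal bands of signal the median difference was -0.65, and in the dimmest it was 1.82. Before scaling, the arrays labelled S3d exceeded the control arrays by 2.15 on the log2 scale at the 25th percentile and by 1.09 at the 99th. Set against their own bands, 8 of the 13 TRiC probes lay between the 10th and the 90th percentile of difference, and 11 lay above the band median. The part of probe brightness in the subunit differences was not tested.

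**Figure D2:**
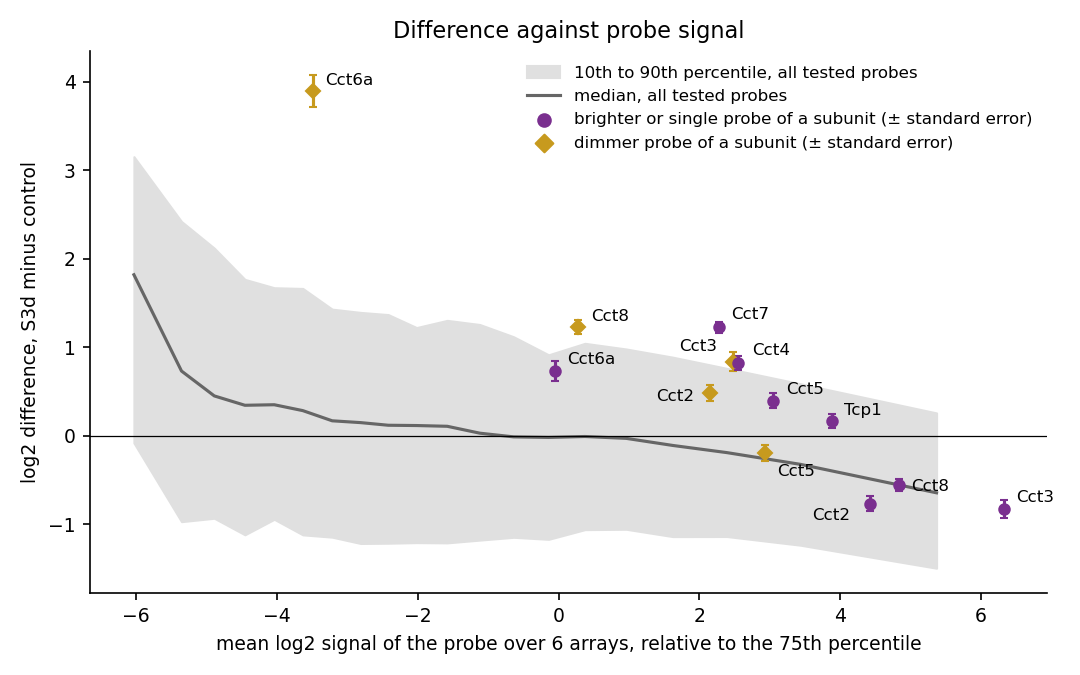
Log2 difference (S3d minus control, vertical, ± standard error) of the 13 TRiC probes against the mean log2 signal of each probe over the 6 arrays (horizontal), with the median and the 10th to 90th percentile of all tested probes in 20 bands of signal. The probes descend from Cct6a at 3.89 on the left to Cct3 at -0.83 on the right, and 11 of 13 lie above the median line of their band.

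The subunits were next set against each other within each array, which takes out any factor common to an array. The mean level of the 8 brightest probes was 3.44, 3.35 and 3.22 in control and 3.48, 3.46 and 3.51 in S3d. The mean of these 8 probes therefore differed by 0.15, with the control mean at 3.33 ± 0.11 and the S3d mean at 3.48 ± 0.02 (SD, n = 3). That difference depends on the scaling between arrays, while no scaling factor enters the values relative to the mean. Relative to that mean, Cct7 stood 1.08 higher, Cct4 0.67 higher, Cct6a 0.59 higher and Cct5 0.25 higher in S3d. Tcp1 kept its place, at 0.02. Cct3 stood at -0.97, Cct2 at -0.92 and Cct8 at -0.71. The SD of the 8 differences was 0.78.

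Control 1 was the highest control array for 12 of 13 probes, beside 37.0% of all tested probes, and S3d 3 the highest S3d array for 9 of 13, beside 29.3%. Subtracting the mean of the complex lowered the median SD of a subunit between the control arrays from 0.11 to 0.03. Between the S3d arrays the median SD went from 0.044 to 0.037. A shared shift of the subunits was therefore larger between the control arrays than between the S3d arrays. All replicate SDs of the 13 probes lay between 0.03 and 0.28, the highest for the dimmer Cct6a probe on the control arrays.

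The direction of several subunits depended on the processing. With quantile normalization 8 of the 13 probes were called, each higher, beside 48.5% of all tested probes called. The brighter Cct2 and Cct3 probes fell short of the limit there, at -0.34 and -0.10. Centring on the median gave 5 called higher and 3 lower, beside 53.0% of all tested probes called. With no scaling, which placed the median of all tested probes at 1.93, all 13 were above 0, and their median of 2.33 stood 0.40 above that shift. All 13 were called there, beside 92.1% of all tested probes. Normexp background correction with offset 50 left only Cct7 called, brought the dimmer Cct6a probe down to 0.73, and placed the median of all probes at -0.69. Of all tested probes 5.53% were called after normexp. The deposited table, read by its own labels, called 8 of the 13 probes, each lower, beside 48.1% of all tested probes called. In it the dimmer Cct6a probe stood at -3.55, with log2 values of 7.80, 8.25 and 8.12 in control and 4.85, 4.42 and 4.25 in S3d. The table's Cct7 values were 12.65, 12.60 and 12.71 in control and 11.31, 11.26 and 11.25 in S3d, at -1.38. Cct4, Cct6a and Cct7 had 1 sign under the scalings of the scanner files and the other sign in that table. The sign of the brighter Cct2, Cct3 and Cct8 probes turned with no scaling, to 1.08, 1.02 and 1.29.

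**Figure D3:**
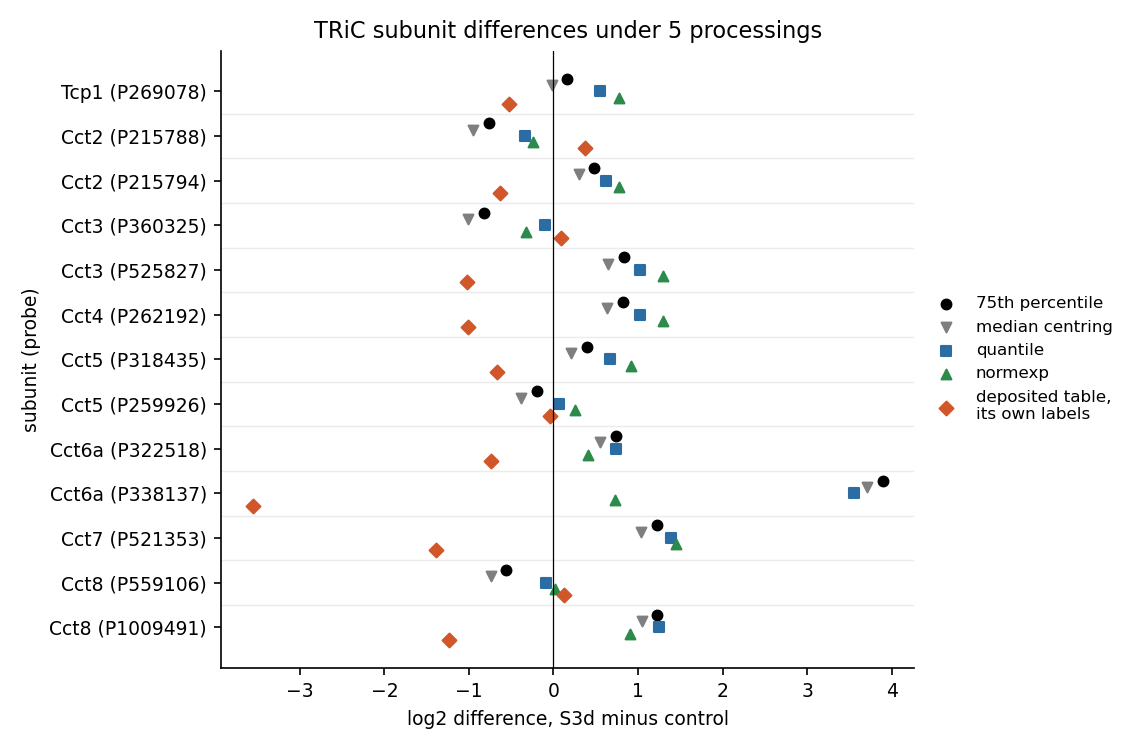
Log2 difference (S3d minus control, horizontal) of each TRiC probe (rows) under 5 processings, 1 symbol each: the 75th percentile, quantile normalization, median centring, normexp correction, and the deposited table by its own labels. The table mirrors quantile normalization, as for Cct7 at -1.38, and normexp moves the dimmer Cct6a probe from 3.89 to 0.73.

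Genes that work with TRiC, together with its relatives among the chaperonins, were taken from 6 lists, 48 genes in all, of which 37 were matched and tested. By the brightest probe of each, 7 were called higher, or 18.9%, and 18 lower, or 48.6%, with a median of -0.54. Both shares are read against 29.2% and 23.2% of all tested probes. In the 2 brightest of the 20 bands lay 19 of the 37 genes, of which 12 were called lower and 1 higher, where 45.1% of all probes were called lower. The other 6 lower calls lay in dimmer bands, among them Tubg1 and Stip1. With quantile normalization 9 of the 37 genes were called higher and 9 lower, or 24.3% each way. Of all tested probes 48.5% were called under that setting, and 49.97% of those calls were higher. The even split of the partner genes was therefore close to that of all tested probes.

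Prefoldin captures unfolded actin and tubulin and passes them to TRiC, and 3 of its 6 subunits were tested. Pfdn1 read 4.76, 4.70 and 4.75 in control and 2.80, 2.66 and 2.72 in S3d, lower on every S3d array by -2.01 ± 0.07 (limma adjusted p = 1.17e-05). Pfdn5 was lower by -0.93 ± 0.06 (limma adjusted p = 3.97e-05). Both kept their calls and direction under quantile normalization, at -1.67 and -0.65, and neither was called after normexp. With no scaling Pfdn5 stood at 0.92, under the shift of all probes. Pfdn6 differed by 0.45 ± 0.13 (limma adjusted p = 0.0194) and did not reach the fold limit, but it was called higher with quantile normalization, at 0.67, and without array S3d 1, at 0.59.

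Of the regulators and co-chaperones 5 of 8 were called lower and 2 higher, and these calls were lost after normexp. Hsf1 read 2.31, 2.05 and 2.12 in control and 1.13, 0.94 and 1.01 in S3d, a difference of -1.13 ± 0.10 (limma adjusted p = 0.000118). Stip1, which joins Hsp70 to Hsp90, differed by -1.28 ± 0.11, and Eipr1, a WD-repeat protein of endosomal recycling, by -1.27 ± 0.08. Those 3 kept their direction and calls under quantile normalization, at -1.06, -1.24 and -0.98. The immunophilin gene Fkbp4 differed by -0.89, a call lost with quantile normalization at -0.54, and its other probes, at -0.15 and -0.27, were not called. Pdcl, a phosducin-like co-chaperone for G-protein beta folding, differed by -0.62, and its call was lost without S3d replicate 3. Txndc9, another phosducin-like regulator of TRiC, was higher by 0.81 ± 0.08 (limma adjusted p = 0.000189), while its other probe, at 0.37, was not called. Cct6b was the other gene called higher. It was not well above background on any control array and was tested only because of its S3d values. Nothing is therefore read from its call. Its probe lay in a dim band of signal where the median difference of all probes was 0.73. Pdcl3 differed by 0.43 and was not called.

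Of the tubulin and actin genes, the main clients, 6 of 10 were called lower and 1 higher. Actb read 9.02, 8.97 and 9.02 in control and 7.41, 7.38 and 7.36 in S3d, a difference of -1.62 ± 0.06 (limma adjusted p = 1.25e-05). Tubg1, for the gamma-tubulin that nucleates microtubules, differed by -1.84 ± 0.11, Actg1 by -1.07 ± 0.06, Tuba1c by -0.88 ± 0.11 and Tubb4b by -0.85 ± 0.10. Tubb2b was the remaining gene called lower, though its 2 dimmer probes stood at 0.57 and 0.23, neither of them called. Tubb6, at 0.83 ± 0.10, was the gene called higher, while its other probe stood at 0.11 with overlapping groups. Tuba4a, Tubb3 and Tubb5 were not called, though Tubb3 gained a call without S3d replicate 3. These calls rested on the scaling: with quantile normalization only 2 of the 10 were called, Tubg1 held at -1.94, Actb fell short at -0.35 and Tubb4b turned to 0.24. The other probe of Actb differed by -1.10.

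Among the tubulin folding cofactors, which assemble the tubulin dimer after TRiC has released its parts, 2 were called in each direction. Tbce read -0.43, -0.18 and -0.17 in control and 1.24, 1.47 and 1.41 in S3d, a difference of 1.64 ± 0.10 (limma adjusted p = 4.48e-05). It was also called after normexp, at 1.46, and its second probe differed by 1.98. Arl2, the small GTPase that works with the cofactors, was higher by 0.60 ± 0.12 (limma adjusted p = 0.00475), and lost its call without array S3d 1, at 0.51, without control replicate 1, at 0.54, and with median centring, at 0.42. Tbca was lower by -1.18 ± 0.08 and Tbcb by -0.84 ± 0.06, and Tbcc was not called at -0.05. With quantile normalization Tbcb lost its call, at -0.42.

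Of the 8 WD-repeat and other folding clients tested, 2 were called higher and 2 lower, and with quantile normalization 2 higher and no longer any lower. Gnb1, a G-protein beta subunit, was higher by 0.95 ± 0.07 and Ppp2r2a, a regulatory subunit of protein phosphatase 2A, by 0.81 ± 0.08. Vhl, which targets hypoxia-inducible factor for degradation, was lower by -0.70 ± 0.07, while its other probe, at -0.50, was not called. Cdc20, an activator of the anaphase-promoting complex, was lower by -0.59 ± 0.07. The call of Cdc20 was lost without control replicate 1 and without S3d replicate 2. Bub3, Gnb2, Rptor and Mlst8 were not called. Among chaperonin relatives outside TRiC, Mkks, a chaperonin-like gene of Bardet-Biedl syndrome, was lower by -0.98 ± 0.06 (limma adjusted p = 4.14e-05). The other Mkks probe, at -0.39, was not called. The brightest probe of Hspd1, the mitochondrial chaperonin, differed by -0.01, while 2 of its other probes were called higher, at 0.62 and 0.61. The remaining Hspd1 probe stood at -0.28 and was not called. With quantile normalization the brightest probe was called too, at 0.76. Its partner Hspe1 differed by -0.54 and was not called, but passed the limit without array S3d 1, at -0.60.

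**Figure D4:**
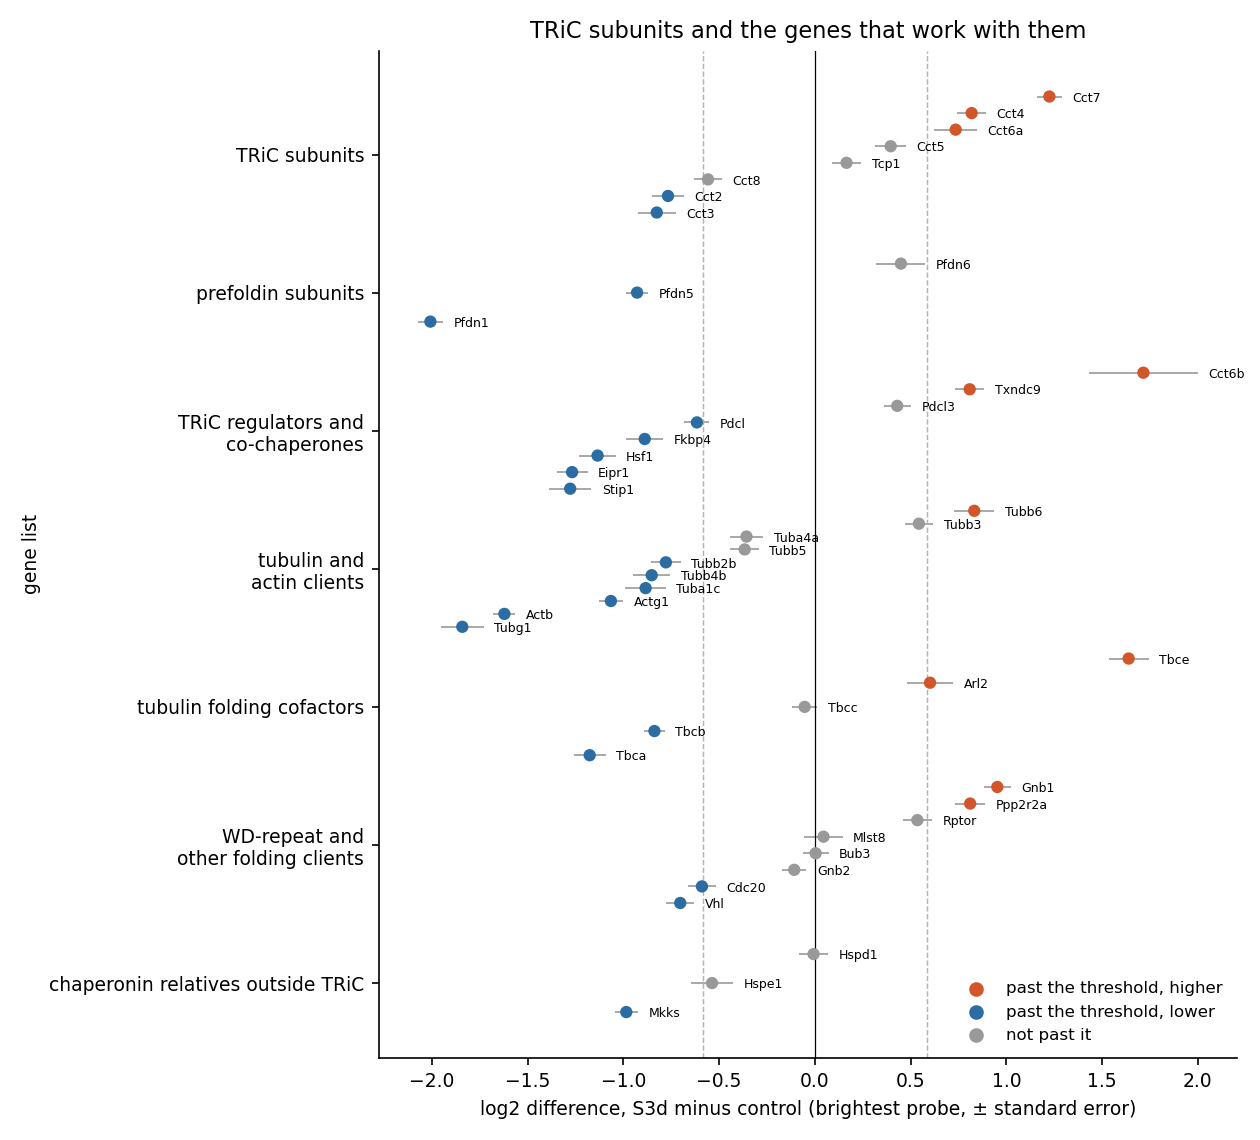
Log2 difference (S3d minus control, horizontal, ± standard error) of the brightest probe of each TRiC subunit and of the 37 genes of the 6 lists (rows), with dashed lines at the 1.5-fold limit. TRiC subunits fall on both sides of 0, from Cct3 at -0.83 to Cct7 at 1.22, and prefoldin reaches -2.01 at Pfdn1. The point of Cct6b is a fitted value of a gene not well above background on any control array.

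Markers of the cells of the jejunum were read in the same fit. Of 11 villus enterocyte genes tested, 7 were called lower and 1 higher, beside 23.2% and 29.2% of all tested probes. The lower ones included Fabp1 at -1.64 and Apoa4 at -1.42, and the higher one was Lct at 0.66. Anpep at 0.07, Vil1 at -0.29 and Slc15a1 at -0.43 were not called. Of these genes 10 lay in the 2 brightest bands, where 45.1% of all probes were called lower. Their summed log2 level ran from 11.86 to 12.01 in control and from 10.65 to 10.72 in S3d. All 11 were well above background on all 6 arrays. Smooth muscle genes had 3 of 6 lower and 1 higher, with summed levels of 6.86 to 7.14 in control and 6.75 to 6.99 in S3d. The higher one was Myh11 at 0.98, whose other probe was called lower, at -0.92. Of the 6 genes 4 lay in the 2 brightest bands. Leukocyte genes had 3 of 7 lower and 1 higher, with summed levels of 3.82 to 3.97 and 3.46 to 3.54. Ptprc counted as lower at -2.64, while its other probes stood at 0.69, called higher, and at -0.53, not called. Goblet cell genes had 2 of 3 lower, at 9.76 to 9.84 and 8.34 to 8.41, and all 3 lay in the 2 brightest bands. None of the 5 proliferation genes was called. Their median difference was 0.33, while their summed levels were 5.53 to 5.64 and 5.43 to 5.52. Of 4 neuron and glia genes 1 was called higher, at 0.47 to 0.55 and 0.66 to 0.86. The part of cell composition in the subunit differences was not tested.

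The acinar genes were high on array S3d 1 alone. Amy2a3, pancreatic amylase, read 8.01 there, -4.45 and -4.80 on the other S3d arrays and -7.84, -6.91 and -6.56 in control. Prss1, trypsinogen, read 8.79 on S3d 1 and from -2.74 to 0.87 elsewhere, and Cela1, an elastase, 6.33 and from -4.41 to -3.27. Summed over the acinar genes tested the level ran from -1.92 to -0.79 in control and from -0.95 to 9.61 in S3d.

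Genes of like pattern were sought among 14617 named probes by the root mean square distance of values over the 6 arrays, each centred on its own mean. Closest to the brighter Cct6a probe were Bbs7 at 0.058, Aida at 0.059, Fam118a at 0.061, Nanp at 0.062 and Slc35d3 at 0.063. Closest to the mean of the other 7 subunits were Arpin at 0.015, Eif4e3 at 0.018, Ncbp1 at 0.021, Eif3l at 0.022 and Pcmt1 at 0.025, genes whose own differences were between 0.04 and 0.09. A search for the dimmer Cct6a probe was added after its values were seen. Closest to it were Gclm at 0.106, Or7g34b at 0.166, Pwwp2a at 0.170, Or5ac21 at 0.171 and Kdm4c at 0.187. The probes of these genes had mean levels from -6.22 to -5.82, all in the dimmest band of signal. All of these distances describe 6 arrays in which group and slide coincide.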

How the data were processed

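The authors deposited 1-colour Agilent scanner files (Cy3 intensity, Feature Extraction 10.7.3.1 per the file headers) for 3 control and 3 S3d arrays, and a table of log2 values already normalized between arrays by a program not given in the sources used here. Each array held 45018 spots, of which 43379 were no controls, and 68.4% to 81.2% of probes were well above background. The number of arrays limits the precision.

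Processed intensity was turned to log2 and the 75th percentile of each array subtracted. Control features were dropped, and so was any spot flagged as an outlier. A probe that stood well above background on every array of at least one of the groups was kept, and these were fitted with limma 3.58.1 in R 4.3.3 (lmFit, eBayes, no covariate, Benjamini-Hochberg over 31420 probes), a method tested on simulated data. Groups follow the sample labels of the scanner files. Accessions were named through RefSeq. The array design follows another build, so no gene coordinates are given, and protein and probe sequences were not used here.

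The members and lists were chosen with earlier results of these data known. All probes of the subunits are named, then the called genes of each list with the largest differences (up to 5 in each direction), the others by name, and the 5 genes nearest in pattern. Alternatives were quantile, median and no scaling, normexp (offset 50, on median spot signal, since no mean column was given), the deposited table, other filters and variance settings, a replicate block, the methods' one-way analysis of variance, the mean over probes, and leaving out each array.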

Additional observations from a re-analysis of the deposited data

How the results depend on the processing

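The TRiC median of 0.48 moved to 0.67 with quantile normalization, 0.30 with median centring, 2.33 with no scaling and 0.78 with normexp, and reversed to -0.66 in the deposited table by its own labels. The 5 called subunits became 8 with no scaling, 1 with normexp and 3 with the mean over probes. Called partner genes went from 25 to 2 with normexp. Without array S3d 1, Pfdn6 and Hspe1 gained and Arl2 lost a call. All called probes went from 16485 to 28948 with no scaling and 1737 with normexp, or from 52.5% to 92.1% and 5.53% of those tested. Higher calls were 55.7% of all calls, 44.3% with median centring, 98.8% with no scaling and 31.0% with normexp. The within-array SD of 0.78 became 0.61 with quantile normalization, 0.68 with normexp and 0.61 in the table. Leaving out 1 array kept the TRiC median between 0.41 and 0.54 and the called subunits at 5 to 6, with Cct8 added at -0.61 without control replicate 3.

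In the table by its own labels, the sign turned for Tcp1 (-0.53), Cct2 (0.37 and -0.63), Cct3 (0.088 and -1.02), Cct4 (-1.01), the brighter Cct5 probe (-0.66), Cct6a (-0.74 and -3.55), Cct7 (-1.38) and Cct8 (0.12 and -1.24). With no scaling it turned for the brighter Cct2 (1.08), Cct3 (1.02) and Cct8 (1.29) probes and the dimmer Cct5 probe (1.65). That Cct5 probe also turned with quantile normalization (0.064) and normexp (0.25), Tcp1 with median centring (-0.019) and the brighter Cct8 probe with normexp (0.021). Apart from the exchange of labels in the table, and the brightness that no scaling leaves in, the cause was not tested.

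The replicate block gave 16340 called probes and changed no call of a subunit or partner gene count. Deviations of same-numbered arrays correlated at 0.02, 0.02 and -0.05, and not every array correlated best with its own number, so the arrays share only a number. Signal over background limits the dimmer Cct6a probe most, since its control signals lay near 10 units of processed signal.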
